A study of Mus musculus with 6 samples.

Results

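The genes described here are the Wnt ligands, their Frizzled receptors and co-receptors, the secreted inhibitors of Wnts, and a pair of genes that Wnt signalling induces, in mouse retina at postnatal day 7 (P7). They were taken by symbol from the deposited expression table: every symbol starting with Wnt, Fzd or Sfrp, with *Dkk1*, *Dkk2*, *Frzb*, *Wif1*, *Lrp5*, *Lrp6*, *Ror1*, *Ror2*, *Ryk*, *Axin2*, and *Lef1* added by name. This gave 44 of the 21744 genes of the table: 19 ligands, 10 Frizzleds, 5 co-receptors and other receptors, 8 secreted inhibitors, and 2 target genes. The table holds 6 libraries from mice of a C57BL/6J; 129S6 mixed background, 3 of them from control retinas and 3 from *Lhx4* null retinas. In the study's account, the *Lhx4* null mouse carries a tdTomato knock-in allele and a loxP allele of *Lhx4* (*Lhx4* tdT/loxP; *Six3-Cre*), so the gene is inactivated in the developing retina by Cre under *Six3* control. The labels call the other mice control and give no further genotype, and for other experiments the study lists wild type, *Lhx4* loxP/+, *Lhx4* tdT/+, and *Lhx4* tdT/loxP mice as controls, the last with both alleles of the null and no Cre named. According to its methods, each library was made from the retinas of 1 mouse with the pigment epithelium removed by dissection. *Lhx4* encodes a LIM-homeodomain factor of bipolar cells, and the comparison asks how the P7 transcriptome differs when it is inactivated.

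Wnts are secreted, lipid-modified proteins that bind Frizzled receptors on the cell surface. When a Wnt brings together a Frizzled and LRP5 or LRP6, the complex that destroys beta-catenin is held back, and beta-catenin enters the nucleus with TCF or LEF factors to switch on genes such as *Axin2*. Other Wnts act without beta-catenin, through Frizzleds, ROR and RYK receptors, on cell polarity and axon growth. SFRP proteins, FRZB and WIF1 bind Wnts outside the cell, while DKK proteins bind LRP5 and LRP6. In the eye, Wnt signalling is known for its roles at the ciliary margin and in the pigment epithelium, and Norrin signals through FZD4 and LRP5 in growing retinal vessels.

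The values are FPKM, fragments of a gene scaled by transcript length and by the fragments mapped in that library, so levels of different genes can be set side by side per length. The table carries no total counts. The steps of whole fragments in low values gave relative depths of 95.7%, 76.9%, and 100% for control replicates 1, 2, and 3, and of 46.7%, 57.5%, and 65.9% for the 3 libraries that carry the *Lhx4* null label, so every control library was deeper. *Lhx4* itself was at 20.9, 23.8, and 19.1 FPKM in the controls, then 31.2, 30.3, and 29.0 FPKM in the null-labelled ones (log2 fold change 0.51, adjusted p = 0.0978, limma). A value over the whole gene does not show which exons were read, so the higher level cannot show whether the gene was inactivated. These libraries are called null-labelled below. Bipolar cell markers differed in the direction of the label. Of 17, 13 were lower and 1 higher at an unadjusted p under 0.05, against 3.55% and 4.60% of all genes tested. Their summed levels were 666 to 750.5 FPKM, against 893.5 to 1059 FPKM in the controls. The list holds genes that the study itself reported as reduced at P7, among them *Trpm1*, *Grm6*, *Scgn*, *Lhx3*, *Grik1*, *Pcp2*, *Gng13*, *Sebox*, and *Bhlhe23*. These markers are therefore no independent check of the label. On the first principal component of all genes tested (30.6% of the variance), null replicates 1 and 2 had scores of -0.549 and -0.579, and replicate 3, at 0.282, lay among the controls at 0.114 to 0.402. The summed level of 4 Y-linked genes was 111 and 112 FPKM in control replicate 1 and null replicate 3, and 0.236 to 1.39 FPKM in control replicate 3 and null replicates 1 and 2. It was 44.2 FPKM in control replicate 2, between the levels of the other libraries, although the methods describe 1 mouse a library, and whether this library holds RNA of more than 1 mouse was not tested. Rod markers, which define the most abundant retinal neuron, summed to 2673 to 3862 FPKM over the 6 libraries, with none at 0. In whole retina, fewer cells of a type and less RNA per cell cannot be told apart.

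Of the 44 genes, 33 reached 0.1 FPKM on average over the libraries and were tested with all other genes of that level, and none of them differed between the groups at an adjusted p under 0.05. The lowest adjusted p among them was 0.428, for *Fzd2* (limma, Benjamini-Hochberg over 15200 genes). Of all genes tested, 34 passed this threshold, which is 0.224%. At an unadjusted p under 0.05, 6 of the 33 passed (18.2%), against 8.15% of all genes tested. *Fzd2*, *Sfrp2*, *Axin2*, *Fzd5*, and *Wnt7a* were higher in the null-labelled libraries, which held for 4.60% of all genes tested, and *Fzd6* was lower, which held for 3.55%. All 3 libraries of one group lay above all 3 of the other in 8 of the 33 genes (24.2%), the 6 above with *Fzd1* and *Sfrp4*, which were higher. This held for 14.2% of all genes tested. The log2 fold change was positive in 25 of the 33 and negative in 8, with a median of 0.16 against 0.01 over all genes tested. The share of positive log2 fold changes over all genes tested was not computed, here or for the counts of signs below. The 95% interval of the difference held 0 in 27 genes, and in 25 genes it lay within 1 log2 unit of 0 on both sides. The 6 genes became 2, *Fzd2* and *Sfrp2*, when control replicate 3 was left out (6.06%), and the share of all genes tested fell to 4.54% in the same fit. *Wnt7a* reached the mean of 0.1 FPKM through the null-labelled libraries and *Dkk2* through the controls. Without this pair, 5 of 31 genes had an unadjusted p under 0.05 (16.1%) and 7 had groups that did not overlap (22.6%). The shares of 8.15% and 14.2% over all genes tested were not restricted in this way.

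**Figure D1:**
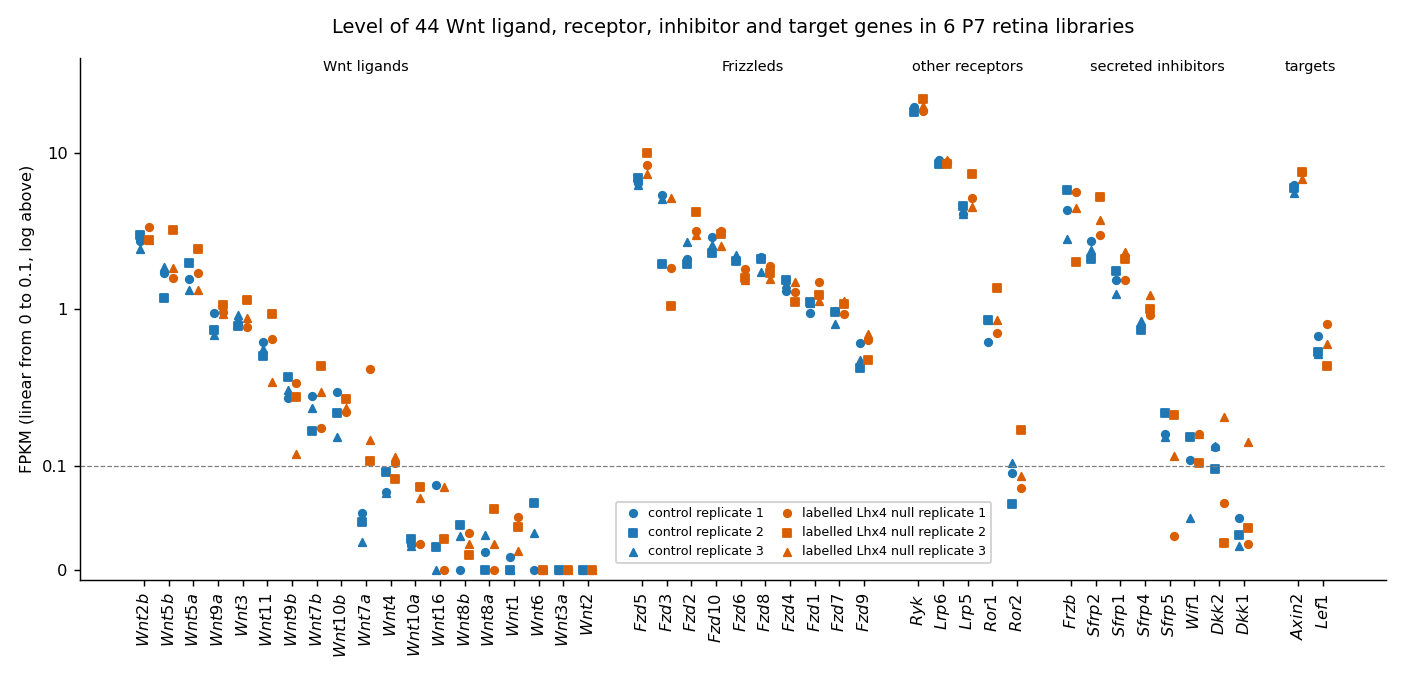
Level of each of the 44 genes in each library, in FPKM on an axis that is linear from 0 to 0.1 and logarithmic above, grouped by role. Blue marks are control libraries and orange marks null-labelled ones, with one shape per replicate number, and the dashed line is 0.1 FPKM. *Ryk*, *Lrp6*, *Fzd5*, and *Axin2* lie at the top, and 11 genes have means under the line.

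**Figure D2:**
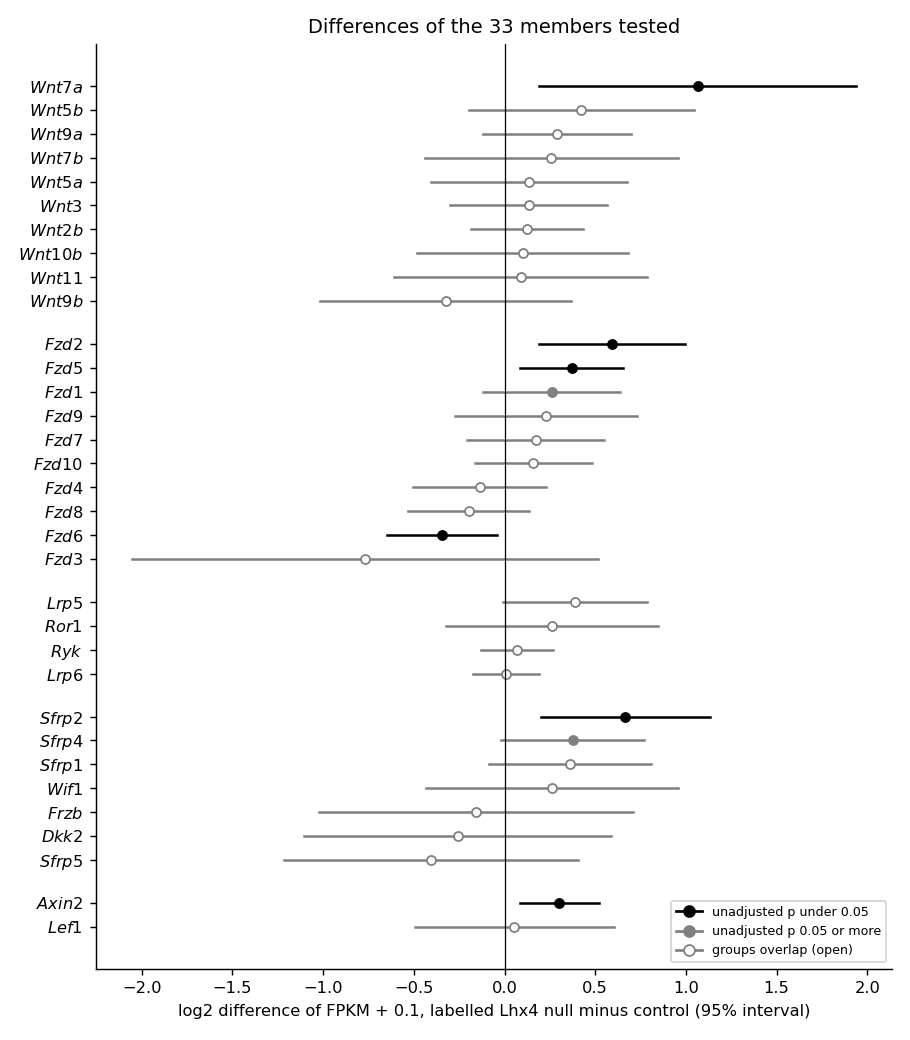
Log2 difference of FPKM + 0.1, null-labelled minus control, with its 95% interval from limma, for the 33 genes tested, by role from ligands at the top to targets. Filled points are genes whose groups did not overlap, and black ones have an unadjusted p under 0.05. The intervals of 27 of the 33 genes cross 0.

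Marker lists of several other cell types differed between the groups in their summed level, with a narrow overlap for ciliary margin and amacrine cells. Of 13 Müller glia markers, 4 were higher at an unadjusted p under 0.05 and none was lower, against 4.60% and 3.55% of all genes tested, and their summed level was 921 to 977 FPKM in the controls and 1096 to 1116 FPKM in the null-labelled libraries. Pigment epithelium and pigment cell markers had summed levels of 25.8 to 50.9 FPKM and 54.9 to 93.6 FPKM, with 6 of 11 higher. Ciliary margin markers, of which 6 of 8 were tested and 3 were higher, summed to 18.3 to 24.3 FPKM and 23.7 to 38.6 FPKM. Amacrine markers were at 640.5 to 701 FPKM and 698 to 764 FPKM, with 5 of 13 higher, and cone markers at 536 to 566 FPKM and 595 to 680 FPKM, with 3 of 9 higher and 2 lower. For fibroblast-like cells of choroid and sclera the summed levels were 29.4 to 32.3 FPKM and 33.8 to 37.6 FPKM, with 1 of 5 tested higher. No marker of these lists was at 0 in every library. Cycling progenitor markers overlapped between the groups, at 44.2 to 58.0 FPKM and 42.1 to 68.7 FPKM, with 0 of 7 at an unadjusted p under 0.05. Their median log2 fold change was 0.49, and that of the rod markers was -0.35. The summed levels also overlapped for rods, astrocytes, pericytes, and lens, with no marker at an unadjusted p under 0.05, and for 4 other lists with such markers. These were ganglion cells with 2 of 9 higher, horizontal cells with 1 of 6 higher, microglia with 1 of 9 higher, and endothelium with 1 of 11 higher and 2 lower. The part of these cell types in the levels of the Wnt genes was not tested.

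Of the 6 genes at an unadjusted p under 0.05, *Axin2*, *Fzd5*, *Sfrp2*, and *Wnt7a* have an entry in the RefSeq promoter table of GRCm38.p6, and *Fzd2* and *Fzd6* were not matched. The 250 bases before each start are shown for these 4 genes, which were picked by their unadjusted p in these data. None of them had an adjusted p under 0.05. The bases run 5' to 3' on the strand of the gene, with every CG dinucleotide in capitals. They lie at chr11:108920099-108920348 on the plus strand, chr1:64737751-64738000 on the minus strand, chr3:83766071-83766320 on the plus strand, and chr6:91411354-91411603 on the minus strand.
Axin2: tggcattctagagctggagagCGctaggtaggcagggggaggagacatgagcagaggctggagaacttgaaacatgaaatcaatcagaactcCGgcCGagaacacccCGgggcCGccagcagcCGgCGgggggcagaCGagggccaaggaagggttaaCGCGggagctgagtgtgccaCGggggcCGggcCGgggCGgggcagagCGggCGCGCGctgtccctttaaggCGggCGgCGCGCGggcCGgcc
Fzd5: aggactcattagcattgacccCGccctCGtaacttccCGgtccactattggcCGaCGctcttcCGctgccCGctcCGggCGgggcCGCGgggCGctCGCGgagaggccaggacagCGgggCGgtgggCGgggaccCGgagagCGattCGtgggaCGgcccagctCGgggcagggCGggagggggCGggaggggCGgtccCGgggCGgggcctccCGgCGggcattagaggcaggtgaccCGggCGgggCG
Sfrp2: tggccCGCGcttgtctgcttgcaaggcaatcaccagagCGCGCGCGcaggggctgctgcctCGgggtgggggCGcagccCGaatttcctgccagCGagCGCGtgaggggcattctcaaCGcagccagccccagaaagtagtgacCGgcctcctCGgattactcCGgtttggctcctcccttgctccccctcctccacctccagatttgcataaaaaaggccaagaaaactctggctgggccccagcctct
Wnt7a: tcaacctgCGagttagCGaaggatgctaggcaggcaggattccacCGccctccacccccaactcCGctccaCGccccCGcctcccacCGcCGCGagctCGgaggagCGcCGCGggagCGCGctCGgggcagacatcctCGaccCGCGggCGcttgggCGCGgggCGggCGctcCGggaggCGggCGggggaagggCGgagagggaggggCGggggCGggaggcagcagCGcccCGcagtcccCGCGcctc
The stretch before *Wnt7a* holds 34 CG dinucleotides, that before *Fzd5* 32, that before *Axin2* 24, and that before *Sfrp2* 16, where the median of 32851 RefSeq promoters of this length is 6. As many as before *Wnt7a*, or more, were found in 3.53% of all promoters, and as many as before *Sfrp2* in 25.4%. Over the 38 promoters matched to 32 of the 44 genes, the count ran from 4 to 48, with a median of 20.5. The TCF and LEF motif CTTTGAT, searched on both strands, was found in the windows of *Wnt5b* and *Wnt11* and in 3.21% of all promoters. Its other form, CTTTGAA, was found in that of *Dkk1* and in 4.46% of all, and TAATTA, the core bound by LIM-homeodomain factors, in that of *Wnt8b* and in 4.84%. CTTTGAT and CTTTGAA differ only in their last letter, and none of the 3 motifs stood in the 4 sequences above.

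*Axin2*, which encodes a scaffold of the beta-catenin destruction complex and is induced by Wnt signalling in many tissues, was higher in the null-labelled libraries at an unadjusted p under 0.05. It lies on chromosome 11 of GRCm38 from 108920349 to 108950783 (ENSMUSG00000000142). Its level was 6.20, 5.96, and 5.51 FPKM in the controls, in the order of their replicate numbers, and 7.52, 7.55, and 6.78 FPKM in the null-labelled libraries. The groups did not overlap, and the lowest of the latter lay above the highest control. The log2 fold change was 0.30 (standard error 0.0952, 95% interval 0.08 to 0.52), with an unadjusted p of 0.0126 and an adjusted p of 0.484 (limma). Without control replicate 3 it was 0.26 with an unadjusted p of 0.0580 (limma). Of its exon bases in GENCODE vM21, 3.8% are shared with *Gm11670*, and whether fragments were counted by strand is not given in the sources used here. *Lef1*, which encodes a nuclear partner of beta-catenin and is itself induced by Wnts, was far lower, at 0.671, 0.533, and 0.518 FPKM in the controls and 0.808, 0.431, and 0.600 FPKM in the others. The groups overlapped, with a log2 fold change of 0.05 (standard error 0.240, interval -0.50 to 0.60, unadjusted p = 0.827, limma).

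Among the 10 Frizzled genes, all of which were tested, 6 had positive and 4 had negative log2 fold changes, with a median of 0.17. At an unadjusted p under 0.05, *Fzd2* and *Fzd5* were higher and *Fzd6* was lower in the null-labelled libraries, against 8.15% of all genes at that level. *Fzd2* encodes a receptor of the same subfamily as FZD1 and FZD7 and lies on chromosome 11 from 102604396 to 102608058. It was at 2.10, 1.94, and 2.70 FPKM in the controls and at 3.17, 4.17, and 2.99 FPKM in the others, with the highest value in null replicate 2. Its log2 fold change came to 0.59 (standard error 0.174, interval 0.19 to 0.99, unadjusted p = 0.00897, limma). The related *Fzd1* was at 0.941, 1.11, and 1.09 FPKM and at 1.48, 1.22, and 1.13 FPKM, groups that were separated by a narrow gap, with a log2 fold change of 0.26 (standard error 0.164, interval -0.12 to 0.64, unadjusted p = 0.152, limma). *Fzd7*, the other member of this subfamily, overlapped between the groups, at 0.915 ± 0.094 FPKM in controls and 1.04 ± 0.10 FPKM in the others (mean ± SD, n = 3).

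*Fzd5*, the receptor known for its role in eye field and early retinal cells, had the highest level of the Frizzleds in both groups. It lies on chromosome 1 from 64730558 to 64737751, and 17.8% of its exon bases are shared with *Gm38058*. The controls had 6.36, 6.91, and 6.25 FPKM and the null-labelled libraries 8.29, 9.94, and 7.25 FPKM, again with the highest value in null replicate 2 and without overlap. The log2 fold change was 0.37 (standard error 0.124, interval 0.08 to 0.65, unadjusted p = 0.0172 and adjusted p = 0.518, limma). Without null replicate 2 it was 0.25 and kept an unadjusted p under 0.05, and without control replicate 3 the unadjusted p was 0.0549 (limma). *Fzd8*, its closest relative, was at 1.99 ± 0.22 FPKM in controls and 1.72 ± 0.17 FPKM in the others (mean ± SD, n = 3), with overlapping groups and a log2 fold change of -0.20 (interval -0.53 to 0.14). The share of *Fzd5* in the summed Frizzled FPKM was 25.7%, 32.6%, and 25.7% in the controls and 33.9%, 39.2%, and 28.5% in the others, so this share overlapped between the groups.

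*Fzd6* and *Fzd3* encode the pair of Frizzleds known for planar cell polarity, and their levels differed between the libraries in unlike ways. *Fzd6* lies on chromosome 15 from 39006034 to 39038188, with levels of 2.07, 2.02, and 2.23 FPKM in the controls and 1.81, 1.58, and 1.53 FPKM in the others, and 3.15% of its exon bases are shared with another gene. The groups did not overlap, and the log2 fold change was -0.35 (standard error 0.132, interval -0.65 to -0.04, unadjusted p = 0.0302 and adjusted p = 0.577, limma). Its unadjusted p was 0.05 or more in 4 of the 6 fits that left out a library. *Fzd3* lies on chromosome 14 from 65192449 to 65262463, with levels of 5.38, 1.94, and 5.03 FPKM in the controls and 1.82, 1.05, and 5.15 FPKM in the null-labelled libraries. Both groups thus held high and low libraries: control replicates 1 and 3 and null replicate 3 lay above 5 FPKM, and the other 3 libraries lay below 2 FPKM. The log2 fold change was -0.77 with a standard error of 0.560 and an interval from -2.05 to 0.52 (unadjusted p = 0.206, limma).

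The highest value of *Fzd3* was 5.11-fold its lowest over the 6 libraries, and of the 12485 genes that averaged 1 FPKM or more only 0.377% had a larger fold, where the median was 1.28. Its neighbours on the chromosome did not follow it: *Extl3* differed by 1.23-fold and *Fbxo16* by 1.11-fold from the lowest to the highest library. The longest annotated transcript of *Fzd3* has 12734 bases, and 0.903% of the genes tested have a longer one, where the median is 3346 bases. Its GC content is 40.3%, and 6.80% of genes tested lie lower. Along the main direction in which libraries of the same group differed over all genes tested (37.4% of the variance within groups), *Fzd3* had rank 117 of 15200 genes by size. That direction gave control replicates 1, 2, and 3 scores of 0.166, -0.369, and 0.203 and null replicates 1, 2, and 3 scores of -0.679, 0.111, and 0.567, so null replicate 2, where *Fzd3* was lowest, did not lie at its low end. The part of transcript length and base composition in the spread of *Fzd3* was not tested.

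**Figure D3:**
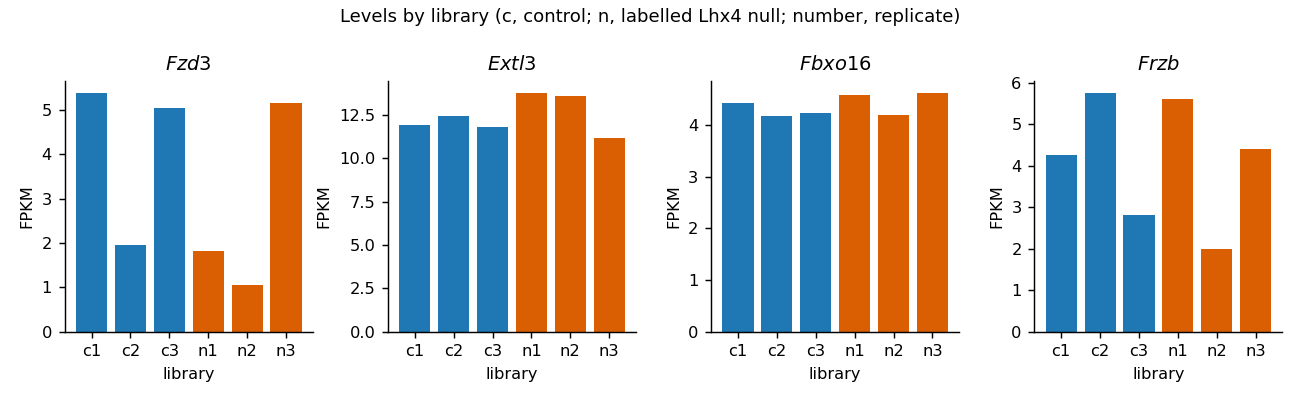
Level in FPKM of *Fzd3*, its neighbours *Extl3* and *Fbxo16*, and the secreted inhibitor *Frzb* in each of the 6 libraries (c, control; n, labelled *Lhx4* null), 1 bar per library, each panel with its own axis from 0. *Fzd3* is above 5 FPKM in control replicates 1 and 3 and null replicate 3 and below 2 FPKM in the others, while both neighbours stay nearly level.

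The other Frizzleds overlapped between the groups. *Fzd4*, the Norrin receptor of retinal vessels, was at 1.43 ± 0.11 FPKM in controls and 1.30 ± 0.19 FPKM in null-labelled libraries (log2 fold change -0.14, interval -0.50 to 0.23). *Fzd10* and *Fzd9*, of the same subfamily, were at 2.58 ± 0.29 and 2.90 ± 0.33 FPKM and at 0.498 ± 0.097 and 0.601 ± 0.114 FPKM (mean ± SD, n = 3). Summed over the 10 Frizzleds, the level was 24.8, 21.2, and 24.3 FPKM in the controls and 24.5, 25.3, and 25.4 FPKM in the others, which overlapped. Without *Fzd3*, a gene left out after its values were seen, the sum was 19.4, 19.3, and 19.3 FPKM in the controls and 22.7, 24.3, and 20.3 FPKM in the null-labelled libraries.

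The secreted Frizzled-related proteins bind Wnts with a Frizzled-like domain, and *Sfrp2* had the lowest p after *Fzd2* among the 44 genes. *Sfrp2* lies on chromosome 3 from 83766321 to 83774316, and 16.1% of its exon bases are shared with *Gm26771*. It was at 2.72, 2.09, and 2.39 FPKM in the controls and at 2.97, 5.18, and 3.69 FPKM in the null-labelled libraries. The groups did not overlap, although null replicate 1 lay close to control replicate 1 and null replicate 2 was the highest by a wide gap. On the log2 scale the difference was 0.67 (standard error 0.203, interval 0.20 to 1.13, unadjusted p = 0.0108 and adjusted p = 0.468, limma), and 0.45 without null replicate 2. *Sfrp4*, on chromosome 13 from 19623104 to 19632994, was at 0.777, 0.733, and 0.843 FPKM and at 0.923, 1.01, and 1.23 FPKM, without overlap, a log2 fold change of 0.38 (standard error 0.171, interval -0.02 to 0.77, unadjusted p = 0.0586 and adjusted p = 0.630, limma). *Sfrp1* was at 1.53, 1.75, and 1.25 FPKM and at 1.52, 2.08, and 2.32 FPKM, where null replicate 1 lay among the controls (log2 fold change 0.36, interval -0.09 to 0.81).

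*Frzb*, also of this family, had the highest mean of the 8 inhibitors and the widest spread between libraries after *Fzd3* among the 18 genes that averaged 1 FPKM or more. It was at 4.27, 5.75, and 2.82 FPKM in the controls and at 5.60, 2.00, and 4.40 FPKM in the null-labelled libraries, a 2.88-fold range, exceeded by 1.58% of genes that averaged 1 FPKM or more. The groups overlapped, with null replicate 2 below every control and control replicate 2 above every null-labelled library, and a log2 fold change of -0.16 (interval -1.02 to 0.71). *Sfrp5*, with 10, 11, and 10 fragments in the controls and 1, 8, and 5 in the others by the steps of its values, lay at 0.0325 to 0.217 FPKM over the 6 libraries, with a log2 difference of -0.41 (interval -1.22 to 0.40). *Wif1*, a Wnt-binding inhibitor of another family, was at 0.109, 0.153, and 0.0494 FPKM and at 0.159, 0.104, and 0.158 FPKM, with an interval of -0.43 to 0.95 around a log2 fold change of 0.26. *Dkk2*, which binds LRP5 and LRP6, had 17, 10, and 18 fragments in the controls and 4, 2, and 18 in the null-labelled libraries. Null replicate 3 thus had as many fragments as the deepest control, and the interval of the log2 difference was -1.10 to 0.59. *Dkk1* had a mean of 0.0520 FPKM and was not tested. Over the 7 inhibitors tested, 4 log2 fold changes were positive and 3 negative, with a median of 0.26. The summed level of the Sfrp genes and *Frzb* was 9.45, 10.5, and 7.45 FPKM in the controls and 11.0, 10.5, and 11.8 FPKM in the others, so the groups overlapped, with both replicates 2 at nearly the same level.

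**Figure D4:**
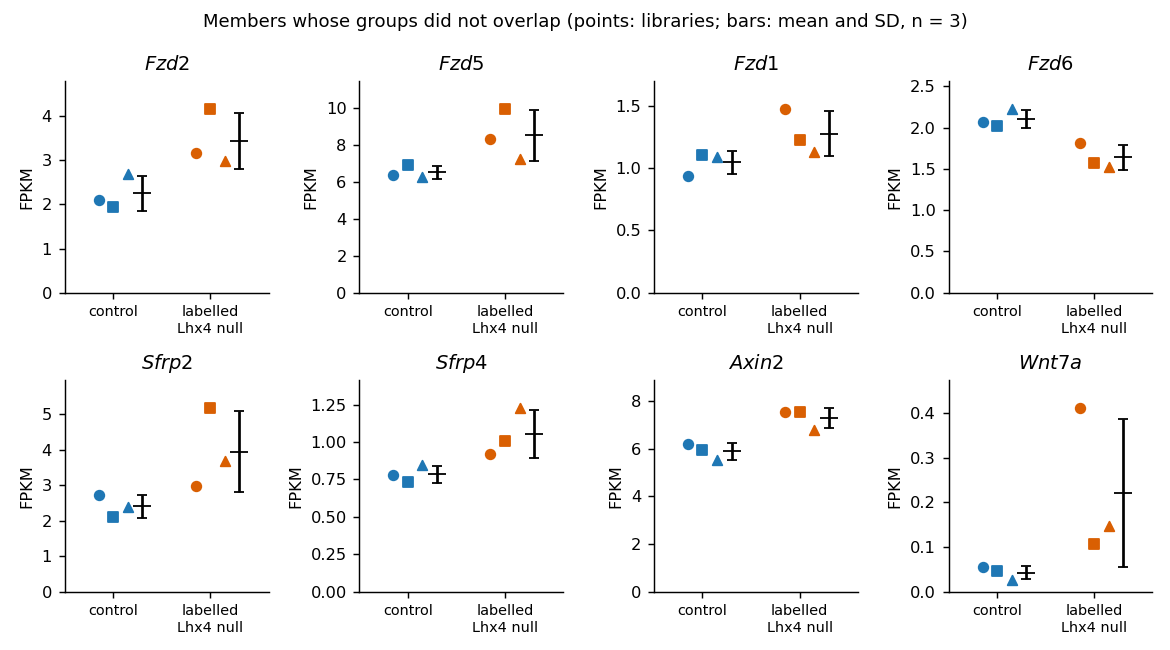
Level in FPKM of the 8 genes tested whose control libraries (blue) and null-labelled libraries (orange) did not overlap, 1 point per library, with the mean and SD (n = 3) beside them and each axis starting at 0. Of the 8, 7 are higher and *Fzd6* is lower in the null-labelled libraries, and none has an adjusted p under 0.05.

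The receptors that act beside the Frizzleds included the members with the highest and with the most even levels. *Ryk*, which encodes a Wnt-binding receptor with an inactive kinase domain, had the highest level of the 44 genes, at 19.7, 18.1, and 19.7 FPKM in the controls and 18.4, 22.0, and 19.9 FPKM in the others. The groups overlapped, with a log2 fold change of 0.07 (interval -0.13 to 0.26). *Lrp6* was at 9.02, 8.42, and 8.56 FPKM and at 8.75, 8.42, and 8.97 FPKM. Its highest value was 1.07-fold its lowest, and 98.4% of genes that averaged 1 FPKM or more had a larger fold. The interval of its difference, -0.18 to 0.19 on the log2 scale, was among the narrowest of the set. *Lrp5*, the co-receptor known for retinal vessels, was at 4.05, 4.56, and 4.06 FPKM in the controls and 5.15, 7.33, and 4.52 FPKM in the others. Null replicate 3 lay just below control replicate 2, and the log2 fold change was 0.39 (interval -0.01 to 0.78, unadjusted p = 0.0540, limma). *Ror1* was at 0.774 ± 0.134 FPKM in controls and 0.974 ± 0.351 FPKM in the others (mean ± SD, n = 3), with its highest value in null replicate 2, and *Ror2*, at a mean of 0.0991 FPKM, just missed the level for testing.

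Of the 19 Wnt ligands, 10 were tested, and 9 of these had positive log2 fold changes. The median of the 10 was 0.13, against 0.01 over all genes tested. Of these 10, only *Wnt7a* had an unadjusted p under 0.05 or groups that did not overlap, against 8.15% and 14.2% of all genes tested. It reached the mean of 0.1 FPKM needed for a test only through the null-labelled libraries, at 0.221 FPKM against 0.0422 FPKM in the controls. *Wnt7a*, known for guiding brain vessels and for axon and synapse growth, lies on chromosome 6 from 91363981 to 91411363. It was at 0.0548, 0.0455, and 0.0262 FPKM in the controls and 0.412, 0.106, and 0.146 FPKM in the null-labelled libraries. By the steps of its values these were 6, 4, and 3 fragments against 22, 7, and 11, although the controls were the deeper libraries. The log2 fold change was 1.06 (standard error 0.381, interval 0.19 to 1.94, unadjusted p = 0.0228 and adjusted p = 0.547, limma). It was 0.22 with a pseudocount of 1 FPKM and 1.96 with one of 0.01 FPKM. Without null replicate 1, which held the highest value, its mean was under 0.1 FPKM and it was not tested.

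*Wnt2b*, known from the ciliary margin, had the highest level of the ligands, at 2.73, 2.97, and 2.43 FPKM in the controls and 3.36, 2.76, and 2.77 FPKM in the others. *Wnt5b* was at 1.71, 1.18, and 1.85 FPKM and at 1.59, 3.19, and 1.84 FPKM, so null replicate 2 stood alone at the top and the other 5 libraries mixed. *Wnt5a*, like *Wnt5b* a ligand known mainly for signalling without beta-catenin, was at 1.57, 1.96, and 1.32 FPKM and at 1.70, 2.44, and 1.32 FPKM. The levels of *Wnt5a* and *Wnt5b* did not differ beyond their spread between libraries, and the groups overlapped in each of the 3 ligands. *Wnt9a* (0.790 ± 0.141 and 0.982 ± 0.069 FPKM), *Wnt3* (0.833 ± 0.071 and 0.932 ± 0.192 FPKM), and *Wnt11* (0.558 ± 0.055 and 0.639 ± 0.294 FPKM) came next, each given for controls and then for the others (mean ± SD, n = 3). *Wnt9b*, *Wnt7b*, and *Wnt10b* lay between 0.119 and 0.434 FPKM over the 6 libraries with overlapping groups, and *Wnt9b* had the one negative log2 fold change of the tested ligands, -0.33 (interval -1.02 to 0.37). *Wnt7b*, which acts with *Wnt7a* in brain vessels, was at 0.227 ± 0.057 FPKM in controls and 0.301 ± 0.130 FPKM in the others. The summed level of the 19 ligands was 9.49, 9.18, and 8.66 FPKM in the controls and 10.4, 12.9, and 9.20 FPKM in the null-labelled libraries, and null replicate 3 lay within the controls.

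The other 9 ligands had means under 0.1 FPKM, and *Wnt2* and *Wnt3a* were listed at 0 in every library. *Wnt4* was the highest of them, at a mean of 0.0911 FPKM. *Wnt1* had 1 fragment in control replicate 1, none in control replicates 2 and 3, and 2, 2, and 1 in the null-labelled libraries, counts too few to compare. *Wnt10a*, *Wnt8a*, and *Wnt8b* had 0 to 4 fragments in each library. *Wnt16* was listed at 0 in control replicate 3 and null replicate 1, and *Wnt6*, for which control replicates 2 and 3 had 0.0637 and 0.0348 FPKM, was listed at 0 in the other 4 libraries.

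**Figure D5:**
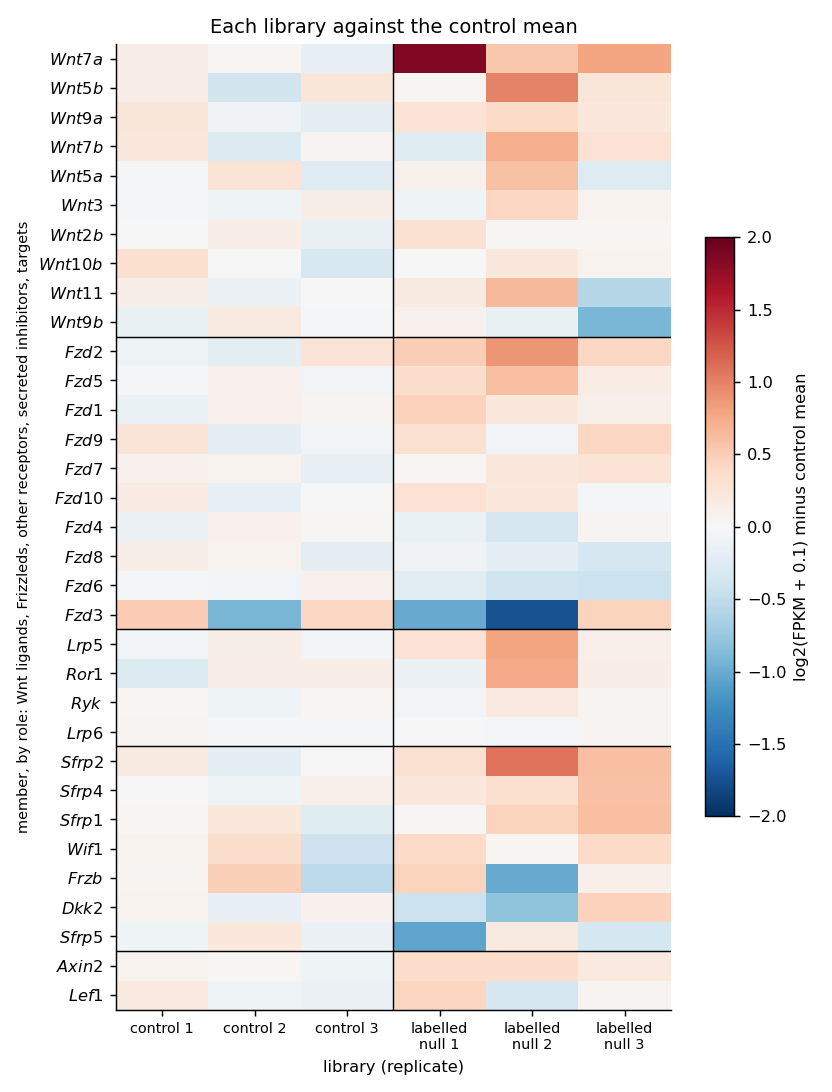
Log2(FPKM + 0.1) of the 33 genes tested in each library, less the control mean of the gene, by role from top to bottom (red higher, blue lower, both ends of the scale at 2 log2 units). Null replicate 2 is the reddest column, *Axin2*, *Fzd2*, and *Fzd5* are above the control mean in all 3 null-labelled libraries, and *Fzd3* and *Frzb* differ as much within as between the groups.

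Null replicate 2 was the library with the highest value in 13 of the 33 genes tested (39.4%), against 27.3% of all genes tested. Ligands made up 6 of the 13, among them *Wnt5a*, *Wnt5b*, *Wnt7b*, and *Wnt11*. The libraries also differed in base composition: over the 3641 genes tested with a GC content of at least 55%, the median deviation from the group mean was 0.075 log2 units in null replicate 2 and -0.073 in null replicate 3, and -0.015 to 0.026 in the others. The median GC content of the 33 genes was 52.7%, against 50.0% over all genes tested. With the trend on GC content removed in each library, 7 of the 33 had an unadjusted p under 0.05, the 6 above and *Sfrp4*. With the summed Y-linked level as a term of the fit, the same 6 had one.

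In the wider Wnt pathway, 97 genes were listed by function, from Wnt release to nuclear factors, and 84 were tested. None had an adjusted p under 0.05 in limma, and 10 had an unadjusted p under 0.05 (11.9%, against 8.15% of all genes), of which 9 were higher and 1 was lower. The median log2 fold change was 0.09, against 0.01 over all genes tested, with 65 genes above and 19 below 0. *Tle4*, which encodes a co-repressor that binds TCF and LEF factors, had the lowest p: 8.86 ± 0.19 FPKM in controls and 12.1 ± 0.72 FPKM in null-labelled libraries (mean ± SD, n = 3). Its log2 fold change came to 0.44, with an adjusted p of 0.107 (limma). *Prickle2*, of the planar polarity branch, was the one lower gene, at 4.52, 6.06, and 4.45 FPKM against 3.74, 3.14, and 3.11 FPKM. *Dkk3*, a secreted relative of the DKK inhibitors that stands in the list of Müller glia markers too, was at 77.9 ± 2.1 and 92.2 ± 3.9 FPKM.

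Among the other genes of the pathway at an unadjusted p under 0.05 were *Notum*, *Nkd1*, *Nfatc2*, *Lgr4*, and *Dvl3*, all higher. Their log2 fold changes were 0.75, 0.30, 0.48, 0.20, and 0.19. Of the 10, only the 8 with the smallest p are named. *Notum*, which encodes an enzyme that removes the lipid from Wnts, was at 0.166, 0.163, and 0.191 FPKM in the controls and 0.223, 0.497, and 0.402 FPKM in the others. *Nkd1*, a feedback inhibitor that binds Dishevelled, was at 6.33, 5.24, and 5.77 FPKM and at 6.58, 8.06, and 6.80 FPKM. *Notum* and *Nkd1* are 2 of the 9 tested genes listed as targets of canonical Wnt signalling, beside *Axin2* and *Lef1*. Of all genes tested, 4.60% were higher at an unadjusted p under 0.05. The other 7 targets, among them *Lgr5*, *Tcf7*, *Apcdd1*, *Ccnd1*, and *Myc*, had unadjusted p of 0.05 or more. *Ctnnb1*, which encodes beta-catenin, was at 167 ± 9 FPKM in controls and 170.0 ± 5.8 FPKM in the null-labelled ones (log2 fold change 0.03). The count of 10 ran from 3 without null replicate 2 to 14 without null replicate 1 or 3, and the share of all genes tested moved the same way in these fits, to 5.52%, 13.0%, and 11.3%.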

How the data were processed

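RNA of P7 retinas was sequenced in 6 libraries, 3 per group, and the labels call them biological replicates and name no batch. The authors mapped paired reads with TopHat2 to GRCm38 and estimated FPKM per gene with Cufflinks, per the labels and the study's methods; versions, annotation and use of strand are not given in the sources used here. The deposited FPKM are normalized for transcript length and library depth. They are not counts, so no count model was fitted, and 0 columns were left unused.

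The 15200 genes averaging 0.1 FPKM or more were fitted as log2(FPKM + 0.1) with limma 3.58.1 (R 4.3.3; lmFit, eBayes with trend) without covariates, Benjamini-Hochberg adjusted, two-sided. Differences on this scale understate the change of low genes. An exact permutation test of 3 libraries against 3 cannot go below p = 0.1. Members and lists were chosen with earlier results of these data known. Full statistics were given for members with an unadjusted p under 0.05 or groups without overlap, *Axin2* and *Lef1*, and values per library for these and the 3 highest members of each role; for the wider pathway at most the 8 with the smallest p were named, and *Ctnnb1* and the targets not passing, *Extl3* and *Fbxo16* were chosen after their values were seen.

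Relative depth came from the ratios of 2154 genes under 0.1 FPKM in every library, 573 to 861 per pair. Whole fragments were called within 0.03 of a whole number, a tolerance that widened in proportion for larger counts. The smallest count of a gene was taken as at most 3. Positions and GC content are from GENCODE vM21. The fit and the depth were tested on simulated data.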

Additional observations from a re-analysis of the deposited data

How the results depend on the processing

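Over 17 alternatives, no member tested had an adjusted p under 0.05. Not all of the 44 genes could be tested: 18 were tested with a filter at a mean of 1 FPKM, and 42 with no filter. The alternatives were other pseudocounts, filters and scalings, no variance trend, the replicate block, the first residual component as a term, each library left out, and, chosen after seeing the data, removal of the GC trend and the Y-linked level as a term. The count at an unadjusted p under 0.05 was 6, and from 2 to 7 with a library left out (2 without control replicate 3, and 7 without *Lhx4* null replicate 1 or 3). The share of all genes tested moved with it, from 8.15% to 4.54%, 13.0%, and 11.3% in these fits. *Fzd2* and *Sfrp2* kept an unadjusted p under 0.05 in all 17. *Axin2* and *Fzd5* lost it without control replicate 3, *Wnt7a* there and with a pseudocount of 1 FPKM, and *Fzd6* in 5 alternatives. *Wnt7a* was not tested with the filter at 1 FPKM or without *Lhx4* null replicate 1. The median log2 fold change of 0.159 ran from 0.0925 to 0.237 with a library left out, the highest without *Lhx4* null replicate 3. The wider pathway's 10 became 6 without control replicate 1, 5 without control replicate 3, and 3 without *Lhx4* null replicate 2, in a range from 3 to 14. *Lef1* turned to -0.0044 without control replicate 3 and -0.14 without *Lhx4* null replicate 1, in a range up to 0.25. The causes were not tested. The replicate numbers do not pair the libraries (correlations of deviations -0.127, 0, and 0.162); the replicate block gave 7 members, adding *Fzd3* and *Lrp5* and dropping *Fzd6*, 7 wider genes, a median of 0.159, and 0 members at an adjusted p under 0.05. Over all genes, 34 had an adjusted p under 0.05, against 15 with the block, 15 to 31 with a library left out, and 50 with the residual component; 1239 had an unadjusted one, and 690 to 1980 with a library left out. Depth limits genes of few fragments, such as *Wnt7a*, *Wnt1*, *Dkk2*, and *Sfrp5*.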
